A study of Mus musculus with 12 samples.

Results

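The 40 genes described here act in the S, G2 and M phases of the cell cycle, and they were taken by symbol from a list drawn up with earlier results of these data known. The rule for membership itself is a symbol and no measured value. All 40 were found among the 49585 genes of a table of mouse lung RNA sequencing. The table holds 12 libraries of C57BL/6 lungs in 4 groups of 3: Has2+/- mice given ovalbumin (libraries 7 to 9), wild-type (WT) mice given ovalbumin (libraries 1 to 3), Has2+/- mice given saline (libraries 10 to 12) and WT mice given saline (libraries 4 to 6). Ovalbumin is an egg protein used as an allergen: mice are sensitized to it and later receive it in the nose, which inflames the airways. Has2 encodes an enzyme that makes hyaluronan, a long sugar chain of the extracellular matrix, and the Has2+/- mice are labelled as heterozygous for its deficiency. The labels do not say which part of the allele is missing. They name no cell type or promoter that would limit the deficiency. The titles of the ovalbumin samples give 24 with no unit.

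Values are the authors' normalized read counts, called units below, and the libraries of a group are always listed in the order of their numbers. All columns were brought to one common distribution, with a sum of 6852201 units each, so the sequencing depth behind a value is unknown and no counting interval is given. Has2 itself stood at 6.67, 5.75 and 11.2 units in libraries labelled Has2+/- ovalbumin, 3.5, 6.42 and 10.2 units in WT ovalbumin, 7.67, 8.17 and 7.42 units in libraries labelled Has2+/- saline and 6.67, 4.42 and 6.08 units in WT saline. It was not lower in the libraries labelled Has2+/-, and under saline it was higher in each of them than in any WT library. Such a separation under saline was seen in 7.04% of all genes tested. The level of Has2 therefore does not check the genotype labels. Library 3 (WT ovalbumin) correlated at 0.971 to 0.975 (Spearman, across genes) with its own group and at 0.985 with WT saline library 4, and library 12 (Has2+/- saline) at 0.979 to 0.982 with its own group and at 0.990 with WT saline library 5. Libraries 1, 5, 7 and 10 also correlated best with a library of another group, by smaller margins, such as 0.987 against 0.990 for library 5. Counts that rest on libraries 3 and 12, which had the widest margins, are also given without them. Lung markers were present throughout, with summed values of 5 alveolar type 2 genes between 94564 and 127855 units. The proliferation marker Mki67 lay between 534 and 1581 units.

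A dividing cell copies its DNA once in S phase and separates the copies in mitosis. Before S phase, Cdc6 and Cdt1 load the MCM helicase (subunits Mcm2 to Mcm7) onto origins of replication. Ribonucleotide reductase (Rrm1 with Rrm2) and thymidylate synthase (Tyms) then supply the building blocks, and Pcna clamps the polymerases to the template. E2F transcription factors switch on many of these genes as cells enter S phase. Genes of mitosis are switched on later by the MuvB complex together with B-Myb and Foxm1, which binds CHR elements near the start of transcription, often beside CCAAT boxes bound by NF-Y. In resting adult lung few cells divide, while in allergic inflammation lymphocytes, macrophages and structural cells can enter the cycle.

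Both classes of promoter words occurred among the 40 genes. RefSeq promoters (build GRCm38.p6, 250 bases before to 50 after the start of transcription) were at hand for 32 of them. Words were searched on both strands. The E2F words searched were TTCCCGC together with a related spelling, TTTGGCG, and with another related spelling, TTTCGCG. They were found in 8 of the 32 (25%), against 6.72% of all 32851 promoters and 12% of the promoters of the 13550 tested genes that have one. The CHR word TTTGAA was found in 15 of 32 (46.9%), against 17.9% of all promoters and 15.4% of those of tested genes. The CCAAT word was in 25 of 32 (78.1%), against 37.4% and 41.5%. All 15 promoters with a CHR word also held a CCAAT box, as did 2284 of the 5878 promoters with a CHR word among all promoters. Both words together were in 46.9% of the 32, against 6.95% of all promoters and 6.15% of those of tested genes. E2F words overlap each other in Mcm5 and Mcm6, and CCAAT boxes on opposite strands overlap in Ube2c. These matches describe letters and no binding.

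The words divided by role. E2F words were in 7 of 11 promoters of replication and nucleotide supply genes and in 1 of the 21 others, that of Cdk1, whereas the CHR word was in 1 of the 11 (Mcm2) and in 14 of the 21. The 5 promoters below are examples of these patterns of words. They do not stand for the response to ovalbumin: 7 of the 15 genes with a CHR word were called higher in WT lungs given it. Mcm3 and Mcm5 encode helicase subunits and hold E2F words without the CHR word. Cdk1 encodes the kinase that drives mitosis and holds both. Cdc20, the activator of the anaphase ubiquitin ligase, and Kif23, a kinesin of cytokinesis, hold the CHR word, and each had the highest p of its role for ovalbumin against saline in WT lungs. Capitals mark the words searched, and a word on the other strand shows as its reverse complement (ATTGG is a CCAAT box on the other strand). The regions are chr1:20820263-20820562 (minus strand) for Mcm3, chr8:75109259-75109558 (plus strand) for Mcm5, chr10:69352863-69353162 (minus strand) for Cdk1, chr4:118437294-118437593 (minus strand) for Cdc20 and chr9:61946750-61947049 (minus strand) for Kif23.
Mcm3: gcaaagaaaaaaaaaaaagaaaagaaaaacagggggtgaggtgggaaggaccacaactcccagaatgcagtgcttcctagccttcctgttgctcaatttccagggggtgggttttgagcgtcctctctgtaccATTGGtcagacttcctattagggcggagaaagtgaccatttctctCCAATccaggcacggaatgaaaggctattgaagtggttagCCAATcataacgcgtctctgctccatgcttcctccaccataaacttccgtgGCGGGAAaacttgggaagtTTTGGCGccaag
Mcm5: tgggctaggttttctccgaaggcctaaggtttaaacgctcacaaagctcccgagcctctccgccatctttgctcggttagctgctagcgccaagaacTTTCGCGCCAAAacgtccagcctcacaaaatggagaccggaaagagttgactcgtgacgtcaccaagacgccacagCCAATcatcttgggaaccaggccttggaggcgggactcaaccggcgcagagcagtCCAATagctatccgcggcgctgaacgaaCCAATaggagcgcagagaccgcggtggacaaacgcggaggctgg
Cdk1: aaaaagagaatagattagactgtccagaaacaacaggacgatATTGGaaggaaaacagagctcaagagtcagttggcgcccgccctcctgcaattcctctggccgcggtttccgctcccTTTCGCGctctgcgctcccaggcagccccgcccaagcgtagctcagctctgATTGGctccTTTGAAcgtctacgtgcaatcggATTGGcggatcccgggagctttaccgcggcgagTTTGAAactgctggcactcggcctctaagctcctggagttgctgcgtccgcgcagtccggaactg
Cdc20: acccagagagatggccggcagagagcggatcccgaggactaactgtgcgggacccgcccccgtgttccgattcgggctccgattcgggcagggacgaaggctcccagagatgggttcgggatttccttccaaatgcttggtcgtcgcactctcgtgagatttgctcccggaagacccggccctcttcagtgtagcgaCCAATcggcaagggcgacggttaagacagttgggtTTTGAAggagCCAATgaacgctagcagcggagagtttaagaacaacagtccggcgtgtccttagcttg
Kif23: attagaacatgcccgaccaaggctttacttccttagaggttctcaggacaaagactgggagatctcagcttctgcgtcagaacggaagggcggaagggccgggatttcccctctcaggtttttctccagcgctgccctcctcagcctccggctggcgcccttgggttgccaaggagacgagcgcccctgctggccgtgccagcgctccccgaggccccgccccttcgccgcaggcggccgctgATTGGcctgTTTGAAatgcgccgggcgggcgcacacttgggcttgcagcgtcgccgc

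In Mcm3 the E2F words begin 20 and 39 bases after the start, and in Mcm5 they begin 153 and 148 bases before it and share bases. In Cdk1 the E2F word lies 131 bases before the start and the CHR words 71 and 15 bases before it. The CHR word of Cdc20 lies 18 bases before the start and that of Kif23 3 bases after it, with CCAAT boxes 10 and 9 bases away.

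**Figure D1:**
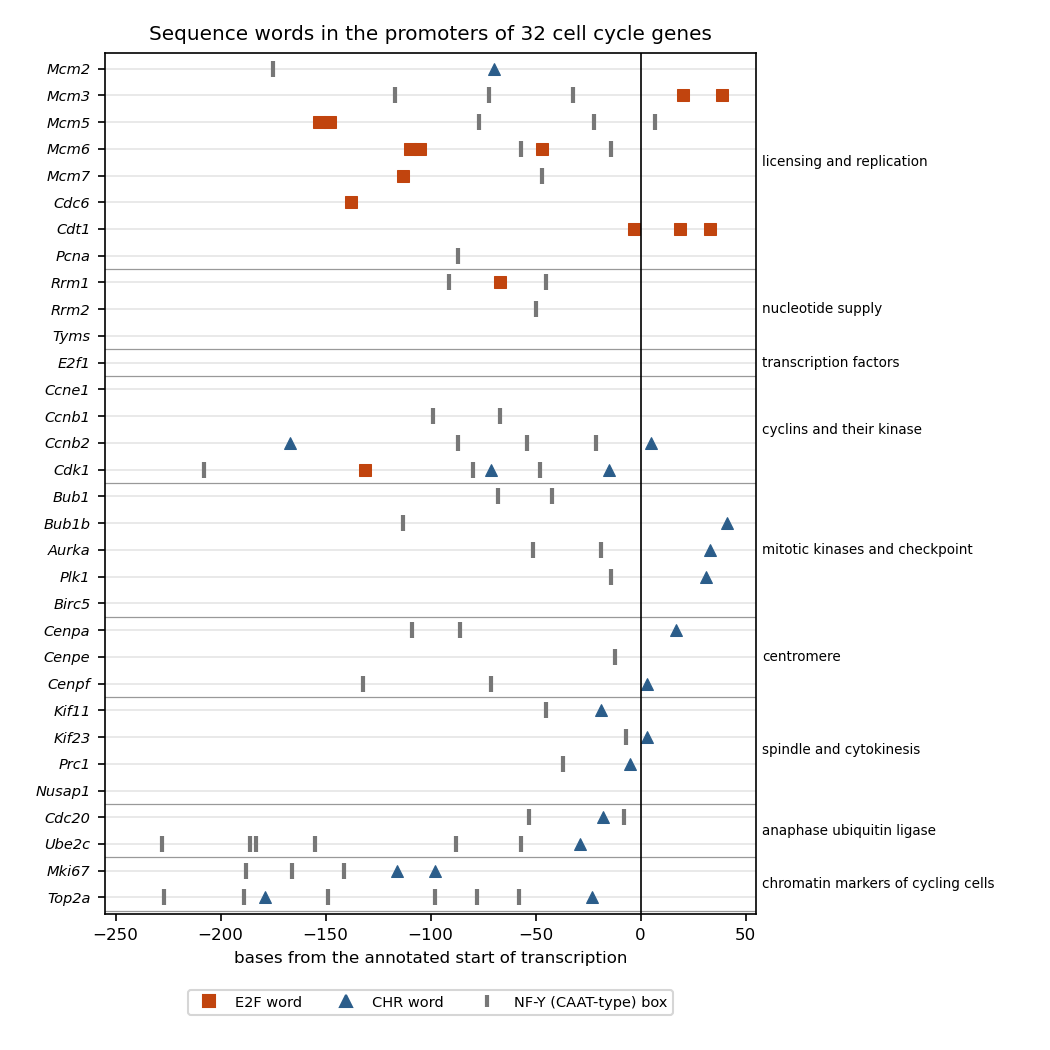
Positions of E2F words (squares), CHR words (triangles) and CCAAT boxes (bars) in the promoters of 32 cell cycle genes, grouped by role; the horizontal axis gives bases from the annotated start of transcription (vertical line), and for Mcm7 and Prc1, which have more than 1 listed promoter, a single one is drawn. E2F words lie mainly in the upper block of replication genes (7 of the 11 genes in the replication and nucleotide supply roles), and CHR words mainly in the blocks below it (14 of the other 21).

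Most of the cell cycle genes were higher in WT lungs given ovalbumin than in those given saline. Of the 40 genes, 29 rose against saline and 0 fell (limma on log2(value + 1), Benjamini-Hochberg adjusted p under 0.05 over all 19017 genes tested), where 8.65% of all genes tested rose and 8.05% fell. Before adjustment 32 of the 40 had a p under 0.05 on the higher side and 0 on the lower (14.5% and 15.6% of all genes). All 40 differences were positive, against 46.8% of all genes. Their median log2 difference was 0.84, with a range of 0.09 to 1.80, while the median over all genes was -0.03. In 31 of the 40 every ovalbumin library lay above every saline library, as in 16.2% of all genes. The authors' deposited table calls 26 of the 40 changed in WT at an FDR under 0.05, all on the ovalbumin side, against 5.86% of all genes higher and 3.14% lower. In whole lung, more cycling cells and more of these RNAs per cell cannot be told apart. The labels do not say that libraries of a group come from separate mice, and p-values then reflect only how far these samples differ, which may be technical.

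**Figure D2:**
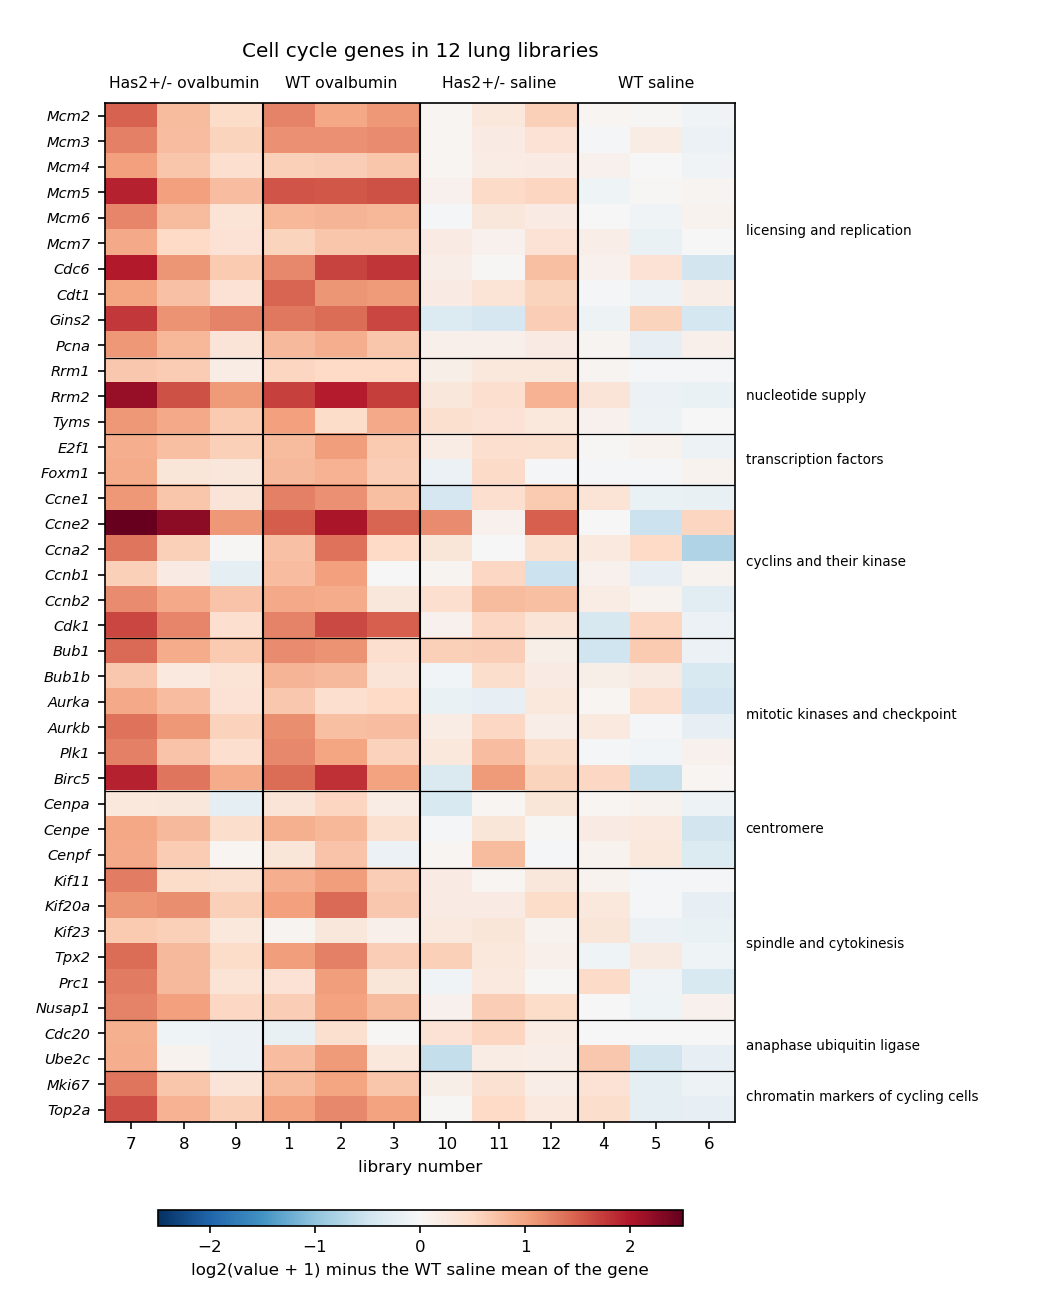
Heat map of the 40 genes (rows, grouped by role) in the 12 libraries (columns), coloured by log2(value + 1) minus the mean of the 3 WT saline libraries. Red fills most of the ovalbumin columns of both genotypes, deepest in library 7, and the saline columns stay near white.

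Every licensing and replication gene rose in WT lungs: 10 of 10, with a median log2 difference of 1.13. Mcm3 (ENSMUSG00000041859, mm10 chr1:20802968-20820312), whose promoter opens the list above, stood at 377, 376 and 386 units in WT ovalbumin libraries and at 165, 193 and 153 units in WT saline libraries. The groups were far apart and the ovalbumin libraries nearly equal. Its log2 difference was 1.16 ± 0.15 (SE, n = 3 and 3, adjusted p = 0.000379). Gins2, a subunit of the GINS complex that completes the helicase, is expressed at a low level. It had 19.9, 21 and 25.5 units with ovalbumin and 6.67, 11.2 and 5.17 units with saline, again without overlap. Its log2 difference of 1.47 ± 0.36 (adjusted p = 0.0113) had the highest p of its role.

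The other helicase subunits rose by log2 differences of 1.58 (Mcm5), 1.10 (Mcm2), 0.84 (Mcm6), 0.65 (Mcm7) and 0.63 (Mcm4). The loaders Cdc6 and Cdt1 rose by 1.56 and 1.21, and the clamp Pcna by 0.80. Cdt1, which geminin inhibits once S phase has begun, had 94.2, 73.8 and 72.2 units in WT ovalbumin libraries and 32.7, 31 and 38 units in WT saline libraries (adjusted p = 0.000937).

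All 3 nucleotide supply genes rose in WT lungs. Rrm2 (ENSMUSG00000020649, chr12:24708241-24714146) encodes the S phase subunit of ribonucleotide reductase and had the greatest log2 difference of the 40 genes. Its WT ovalbumin libraries held 112, 134 and 114 units and the WT saline libraries 42.2, 30.3 and 30 units. The log2 difference was 1.80 ± 0.24 (adjusted p = 0.000461). Rrm1, the large subunit, had 282, 277 and 276 units with ovalbumin and 206, 188 and 192 units with saline. These groups were narrow and separate, and the log2 difference was 0.51 ± 0.11 (adjusted p = 0.00598). Tyms rose by 0.81 (adjusted p = 0.00575).

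Both transcription factors rose in WT lungs. E2f1 (ENSMUSG00000027490, chr2:154559407-154569892) had 116, 139 and 105 units with ovalbumin and 68.2, 71.2 and 60.5 units with saline, a log2 difference of 0.83 ± 0.14 (adjusted p = 0.00131). Foxm1, which drives genes of G2 and mitosis, had 112, 117 and 97.7 units with ovalbumin and 61, 61.7 and 67.4 units with saline. The groups of both genes were separate, and the log2 difference of Foxm1 was 0.77 ± 0.19 (adjusted p = 0.0116).

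Of the cyclins and their kinase, 4 of 6 rose in WT lungs. Cdk1 (ENSMUSG00000019942, chr10:69336635-69352938) had 55.5, 73.8 and 65.7 units with ovalbumin and 17.1, 33.8 and 20.5 units with saline, a log2 difference of 1.46 ± 0.30 (adjusted p = 0.00393). The E-type cyclins of S phase entry, Ccne2 and Ccne1, rose by 1.67 and 1.05, and the mitotic cyclin Ccnb2 by 0.72 (adjusted p = 0.0454). The other mitotic cyclins did not pass: Ccna2 had a log2 difference of 0.86 (adjusted p = 0.141). For Ccnb1 the WT ovalbumin libraries held 34.8, 41.8 and 19.9 units and the WT saline libraries 21.7, 17.1 and 21.4 units. Library 3 lay inside the saline range, and the log2 difference was 0.60 ± 0.33 (adjusted p = 0.229).

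Among mitotic kinases and checkpoint genes 4 of 6 rose in WT lungs: Birc5 by 1.41, Plk1 by 0.91, Aurkb by 0.90 and Bub1b by 0.66. Aurkb, the kinase of the chromosomal passenger complex in which Birc5 is a subunit, had 62.3, 46.9 and 47.5 units with ovalbumin and 32.6, 26.4 and 23.5 units with saline (SE 0.23, adjusted p = 0.0124). Its relative Aurka, which works at spindle poles, had 39.8, 33.2 and 35 units with ovalbumin and 25.5, 33.4 and 17.4 units with saline. The groups overlapped at library 5, and the log2 difference was 0.53 ± 0.26 (adjusted p = 0.177). Bub1 missed the threshold at a log2 difference of 0.90 (adjusted p = 0.0546).

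Of the centromere genes 1 of 3 rose in WT lungs. Cenpe, a kinetochore motor, had 126, 121 and 88.9 units with ovalbumin and 78.2, 80.1 and 48.7 units with saline, a log2 difference of 0.71 ± 0.20 (adjusted p = 0.0239). Cenpf had 134, 178 and 97.7 units with ovalbumin and 115, 130 and 85.5 units with saline. These values overlapped widely, and the log2 difference of Cenpf was 0.29 ± 0.31 (adjusted p = 0.587). Cenpa, the histone of the centromere, had a log2 difference of 0.34 (adjusted p = 0.261) although its groups did not overlap.

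Of the spindle and cytokinesis genes 4 of 6 rose in WT lungs: Kif20a by 1.04, Tpx2 by 0.98, Kif11 by 0.85 and Nusap1 by 0.80. Kif20a, a kinesin of the dividing cell's midzone, had 64.3, 85.4 and 50.1 units with ovalbumin and 37.7, 30.1 and 26.8 units with saline (SE 0.22, adjusted p = 0.00527). Kif23 had 80.8, 94.9 and 84.3 units with ovalbumin and 96.2, 70.2 and 68.5 units with saline. The highest of these 6 values was in a saline library, and the log2 difference was 0.16 ± 0.16 (adjusted p = 0.529). Prc1, which bundles midzone microtubules, had a log2 difference of 0.57 (adjusted p = 0.166).

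Neither gene of the anaphase ubiquitin ligase passed in WT lungs. Ube2c, its ubiquitin-conjugating enzyme, had 62.1, 76.8 and 43.7 units with ovalbumin and 58.2, 25.8 and 31.1 units with saline, a log2 difference of 0.70 ± 0.35 (adjusted p = 0.198). Cdc20 had 47.5, 71.3 and 55.3 units with ovalbumin, around the 53.7, 54.4 and 53.7 units of saline. Its log2 difference was 0.09 ± 0.24 (interval -0.41 to 0.58, adjusted p = 0.841), the smallest of the 40.

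Of the chromatin markers, Top2a rose in WT lungs by limma and Mki67 missed the threshold, while the authors' deposited test called both (FDR 0.000701 and 0.00438). Top2a, the topoisomerase that untangles replicated DNA, had 447, 511 and 446 units with ovalbumin and 299, 187 and 192 units with saline, a log2 difference of 1.08 ± 0.27 (adjusted p = 0.0265). The values of Mki67, which coats mitotic chromosomes, were 1090, 1252 and 1019 units with ovalbumin and 810, 534 and 571 units with saline. The groups did not overlap, and the log2 difference was 0.83 ± 0.25 (adjusted p = 0.056). Mki67 passed under some alternatives, such as housekeeping gene scaling or fitting only the WT groups. Across the promoters described above, 8 of 8 genes with an E2F word rose in WT lungs, as did 14 of 24 without one (median log2 differences 1.18 and 0.80). Of the genes with a CHR word 7 of 15 rose, and of those without it 15 of 17 (medians 0.70 and 0.84). Of the 8 genes with an E2F word, 7 are replication or nucleotide supply genes. Every gene of those roles rose, with or without the word. Word and role can therefore not be told apart here, and these shares were not compared with a test.

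Of the 29 WT calls, 18 held under every alternative tried. They were Mcm2 to Mcm7, Cdc6, Cdt1, Pcna, Rrm1, Rrm2, Tyms, E2f1, Foxm1, Cdk1, Kif11, Kif20a and Tpx2. Gins2, Ccne1, Ccne2, Ccnb2, Aurkb, Birc5, Bub1b, Plk1, Cenpe, Nusap1 and Top2a each lost the call when 1 of the 6 WT libraries was left out. The adjusted p of Top2a reached 0.094 and that of Gins2 0.0574 over all alternatives.

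**Figure D3:**
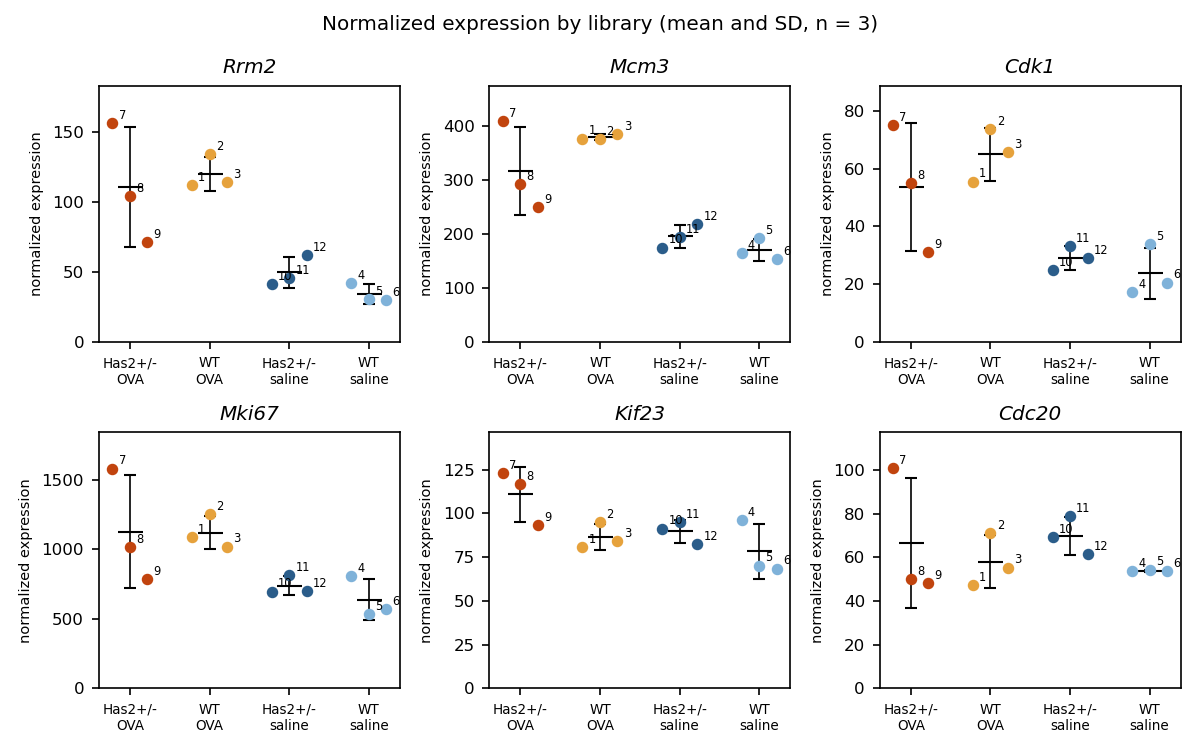
Normalized expression of Rrm2, Mcm3, Cdk1, Mki67, Kif23 and Cdc20 in each library (points, labelled by library number), with the mean and SD of each group of 3; vertical axes start at 0 and OVA is ovalbumin. Rrm2 and Mcm3 separate ovalbumin from saline in both genotypes, Cdc20 does not, and among Has2+/- ovalbumin libraries number 7 is the highest in all 6 genes.

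In Has2+/- lungs 39 of the 40 genes had a positive difference with ovalbumin, and 5 passed the test. Of all genes tested 1.85% rose and 0.952% fell, and 51% had a positive difference. Of the 40 genes 0 fell. Before adjustment 26 of the 40 had a p under 0.05 on the higher side and 0 on the lower (10.5% and 8.88% of all genes). The median log2 difference was 0.56, against 0.01 over all genes. Ovalbumin libraries lay wholly above saline libraries for 17 of the 40 (13.2% of all genes). The authors' deposited table calls 6 of the 40 in Has2+/-, all higher, against 1.46% of all genes higher and 1.02% lower.

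The 5 genes were 4 of replication and 1 of nucleotide supply. Mcm3 had 409, 292 and 250 units in Has2+/- ovalbumin libraries and 175, 195 and 218 units in Has2+/- saline libraries, a log2 difference of 0.66 ± 0.15 (adjusted p = 0.031). For Rrm2 the Has2+/- ovalbumin libraries held 156, 104 and 71.3 units and the Has2+/- saline libraries 41.2, 45.7 and 62.1 units, a log2 difference of 1.09 ± 0.24 (adjusted p = 0.0295). Gins2 had 27.2, 17.2 and 18.7 units with ovalbumin and 5.58, 5.25 and 11.8 units with saline, a log2 difference of 1.42 ± 0.36 (adjusted p = 0.0463). None of these 3 genes overlapped between groups, and in Mcm3 and Rrm2 library 9 stood closest to saline. Mcm4 rose by 0.56 (adjusted p = 0.0216) and Pcna by 0.60 (adjusted p = 0.0471).

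These 5 calls lay near the threshold (adjusted p of 0.0216 to 0.0471) and were easily lost. Leaving out library 7, 8, 10 or 11 left 0 of the 40 called, and leaving out library 9 gave 10. Leaving out library 2, 4 or 6 left 3, although these WT libraries enter this comparison only through the shared estimate of the spread. Fitting only the Has2+/- groups, or limma without its trend and robust options, also gave 0. Calls over all genes fell too without those options (numbers in the closing section). For the other settings of this paragraph they are not given, so those changes are not shown to be particular to the 40 genes.

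Mitotic genes in Has2+/- lungs had mostly positive differences, and none passed. Top2a had 674, 405 and 333 units with ovalbumin and 224, 312 and 260 units with saline (log2 difference 0.77, adjusted p = 0.168). Mki67 had 1581, 1014 and 788 units with ovalbumin and 696, 816 and 702 units with saline (0.55, adjusted p = 0.274). Both spread widely among ovalbumin libraries, and for Mki67 library 9 lay within the saline range. Cdk1 showed the same form, with 75.1, 54.9 and 31 units with ovalbumin and 24.8, 33.3 and 28.9 units with saline (0.79, adjusted p = 0.157). Aurkb (71.8, 59.2 and 41.2 units with ovalbumin, 31, 39.4 and 30.6 units with saline) and Aurka (48.2, 42.9 and 31.9 units with ovalbumin, 21.7, 21.1 and 29.8 units with saline) did not overlap between groups, with adjusted p of 0.0907 and 0.128. Cenpe (132, 119 and 91.8 units with ovalbumin, 65, 83.6 and 69.2 units with saline) and Kif20a (68.2, 71.3 and 47.8 units with ovalbumin, 36.2, 36 and 43.2 units with saline) were also separate, with adjusted p of 0.098 and 0.112.

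None of the remaining genes named for WT lungs passed the test in Has2+/- lungs. Cdc20 had the one negative log2 difference, -0.15 (adjusted p = 0.777), with 101, 50.2 and 48.4 units with ovalbumin and 69.2, 79 and 61.7 units with saline. Ccnb1 had 30.6, 23.2 and 16.7 units with ovalbumin and 20.9, 29 and 13.5 units with saline (0.17, adjusted p = 0.823). In both genes ovalbumin libraries lay above and below saline libraries. Ube2c had 68.5, 38.4 and 32.7 units with ovalbumin and 23.6, 41.1 and 40.8 units with saline (0.36, adjusted p = 0.617). Cenpf had 210, 169 and 112 units with ovalbumin and 112, 188 and 106 units with saline (0.27, adjusted p = 0.684). For Kif23 the values were 123, 117 and 93.2 units with ovalbumin and 91.3, 95.2 and 82.6 units with saline (0.30, adjusted p = 0.314). Library 7 was again the highest for these 3 genes. Rrm1 (310, 303 and 221 units with ovalbumin, 216, 236 and 233 units with saline), Foxm1 (121, 78.8 and 77.2 units with ovalbumin, 57.2, 89.2 and 61.7 units with saline) and E2f1 (125, 113 and 101 units with ovalbumin, 75.9, 89.1 and 88.5 units with saline) had adjusted p of 0.2, 0.257 and 0.121. Of these 3, E2f1 alone was separate between groups.

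**Figure D4:**
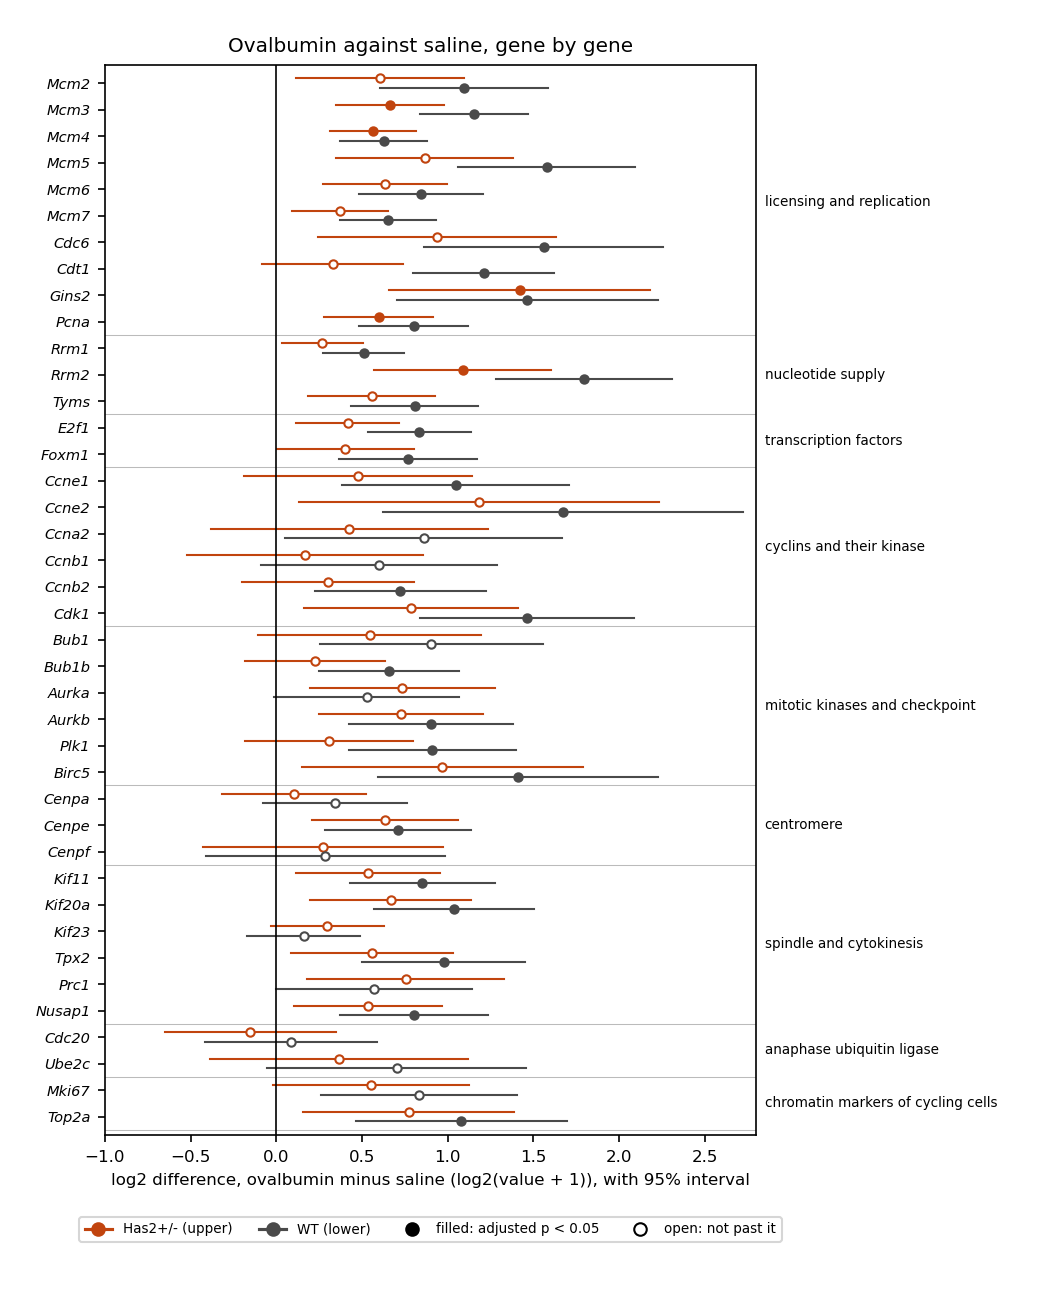
Log2 difference between ovalbumin and saline, ovalbumin minus saline, with its 95% interval for each of the 40 genes in Has2+/- (upper, red) and WT (lower, grey) lungs, grouped by role; filled points passed the test. Filled points are 5 in Has2+/- and 29 in WT, and the points lie right of 0 for 39 genes in Has2+/- and 40 in WT.

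The Has2+/- ovalbumin libraries ranked alike from gene to gene. Library 7 was the highest of the 3 for 38 of 40 genes and library 9 the lowest for 38. Over all 12 libraries, 31 genes were highest in library 7, while 18 were lowest in WT saline library 6 and 13 in WT saline library 5. The median log2 deviation of the 40 genes from the WT saline mean was 1.20, 0.79 and 0.42 in libraries 7, 8 and 9, against 0.90, 1.02 and 0.68 in WT ovalbumin libraries 1, 2 and 3. It was 0.12, 0.33 and 0.28 in Has2+/- saline libraries and 0.09, -0.05 and -0.14 in WT saline libraries. Library 9 thus lay closer to the saline libraries than any other ovalbumin library did.

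Synthesis and mitosis genes had similar medians in most libraries, with the widest gap in library 3. There the median log2 deviation was 1.07 for the 13 replication and nucleotide supply genes and 0.42 for the 17 genes of mitotic kinases, centromere, spindle and anaphase. Library 1 had 1.15 and 0.84, library 2 0.96 and 0.98, and library 7 1.22 and 1.10. These values were not compared with a test. Without libraries 3 and 12 the counts of called genes were 4 in Has2+/- and 30 in WT.

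**Figure D5:**
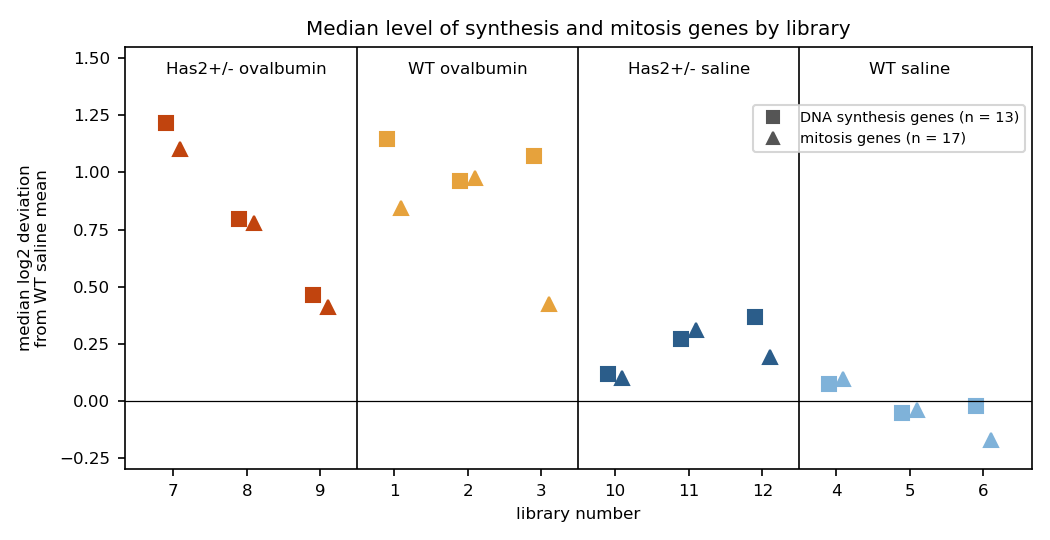
Median log2 deviation from the WT saline mean in each library for 13 DNA synthesis genes (squares) and 17 mitosis genes (triangles), coloured by group. Among Has2+/- ovalbumin libraries number 7 is highest and number 9 lowest, and library 3 holds the widest gap between the symbols, 1.07 against 0.42.

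Under saline, the libraries labelled Has2+/- and WT did not differ in any of the 40 genes by the adjusted test. limma called 0 higher and 0 lower (0.0105% and 0% of all genes), and before adjustment a p under 0.05 was found for 4 on the higher side and 0 on the lower (2.61% and 3.01% of all genes). The authors' deposited table called 0 of the 40 (0.021% of all genes higher, 0.0158% lower). Positive differences were seen in 36 of 40 (50.2% of all genes), with a median log2 difference of 0.24. In 8 genes every Has2+/- library lay above every WT library, as in 7.04% of all genes. Ccnb2 had the lowest p, with a log2 difference of 0.65 (interval 0.15 to 1.15, adjusted p = 0.798).

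After ovalbumin, 0 of the 40 genes differed between libraries labelled Has2+/- and WT by limma (0.589% of all genes were called higher and 0.363% lower). The authors' deposited table also called 0 of the 40 (0.126% of all genes higher, 0.242% lower). Before adjustment 1 gene had a p under 0.05 on the higher side and 1 on the lower (9.62% and 6.43% of all genes). Kif23 was higher, with 123, 117 and 93.2 units in Has2+/- and 80.8, 94.9 and 84.3 units in WT (log2 difference 0.35, adjusted p = 0.288). Cdt1 was lower, with 68.2, 56.8 and 43.5 units in Has2+/- and 94.2, 73.8 and 72.2 units in WT. The groups of Cdt1 did not overlap, as with 7.13% of all genes in this direction, and its log2 difference was -0.52 (adjusted p = 0.201). Among the 40 the differences were positive for 13 and negative for 27 (47.1% of all genes were negative). Their median was -0.07, which became 0.12 without library 9 and -0.28 without library 7. Without library 7, Mcm5 and Mcm3 were called lower in Has2+/-, at log2 differences of -0.68 and -0.49. Calls over all genes also became more numerous in that setting (numbers in the closing section), and no other alternative called any of the 40.

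The difference between the responses, the Has2+/- change minus the WT change, was tested directly. limma called 0 of 40 (0.00526% of all genes higher, 0.0105% lower), while before adjustment 2 had a p under 0.05 on the lower side and 0 on the higher (3.45% and 5.1% of all genes). These were Cdt1, at -0.88 (interval -1.46 to -0.30, adjusted p = 0.439), and Mcm3, at -0.49 (interval -0.94 to -0.05, adjusted p = 0.561). In Cdt1 the ovalbumin change was 0.33 in Has2+/- and 1.21 in WT. The estimates were negative for 37 of 40 genes, against 47.7% of all genes, with a median of -0.35 against 0.02. The 40 estimates share the same 12 libraries and are not independent of each other, and their intervals reach from -1.98 to 1.03. The larger number of calls in WT is therefore not shown to be a difference between genotypes. Without library 7 the median became -0.56 and Mcm5 passed at -1.05 (adjusted p = 0.0387). No other alternative called any of the 40 here, and the share over all genes in that setting is not given.

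Other genes of the cycle, 113 tested in 7 lists, moved in part. With ovalbumin, 1 rose in Has2+/- and 0 fell, with a median log2 difference of 0.29; in WT 36 rose and 2 fell, with a median of 0.39. Over all genes tested 1.85% rose in Has2+/- and 8.65% in WT, so the count of 1 among 113 in Has2+/- is at or under the share over all genes. In Has2+/- 0.952% of all genes fell and in WT 8.05%, so the 2 falls among 113 in WT are under that share. The Has2+/- call was Cdc7, the kinase that fires loaded origins, with 46.2, 45 and 44.6 units with ovalbumin and 20, 18.9 and 25.5 units with saline (log2 difference 1.05, adjusted p = 0.0127). These groups were tight and separate, and the call was lost under 3 of 21 alternatives. In WT lungs it was not called, with 32.9, 31.9 and 40.3 units with ovalbumin and 35.4, 32.3 and 33.2 units with saline. Under saline its log2 difference between Has2+/- and WT was -0.64 (adjusted p = 0.731). The interaction of Cdc7 was 1.00 (adjusted p = 0.404), so a difference between the responses of the genotypes is not shown.

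In WT lungs 12 of 24 condensin, cohesin release and spindle genes rose, among them the kinesin Kifc1 by 1.52 and the cohesin-cutting separase Espl1 by 1.02. Of the kinetochore and spindle checkpoint genes 6 of 18 rose, among them Cenph by 2.06 and Incenp by 0.57. Cenph had 21.8, 17.1 and 15.5 units with ovalbumin and 4.67, 4 and 2.33 units with saline. Of the origin and fork genes 8 of 33 rose, among them the ligase Lig1 by 0.84 and the polymerase subunit Pold1 by 0.64. Lig1 stood at 271, 261 and 269 units with ovalbumin and at 154, 144 and 147 units with saline.

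Further lists held regulators that start or restrain the cycle. In WT lungs 5 of 17 pocket protein and E2F family genes rose. Among them were the repressor E2f7, by 1.26, and Rbl1, a relative of the retinoblastoma protein, by 0.63. The E2F partner Tfdp1 was another, by 0.47 (adjusted p = 0.0103). In the same list 1 gene fell, the E2F partner Tfdp2, by 0.42 (adjusted p = 0.0418), a call lost under 10 of 21 alternatives. Of the G1 cyclins and kinases 2 of 6 rose, Ccnd1 by 0.42 and Cdk4 by 0.27. Of the 7 further nucleotide synthesis genes 3 rose, among them Dut by 0.79, and 1 fell: Rrm2b, the ribonucleotide reductase subunit that p53 induces and resting cells use. Rrm2b had 127, 139 and 136 units in WT ovalbumin libraries and 210, 199 and 220 units in WT saline libraries, a log2 difference of -0.64 (adjusted p = 0.000589). Its direction was opposite to that of Rrm2, the subunit it can replace.

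None of the 8 inhibitors of cyclin-dependent kinases was called with ovalbumin in either genotype. Cdkn1b had log2 differences of -0.31 in Has2+/- and -0.26 in WT (adjusted p = 0.0651 and 0.0538). After ovalbumin, 1 gene of the 113 was called between genotypes, near the share over all genes (0.589% higher and 0.363% lower): Cdkn1a, which encodes p21. It had 511, 415 and 390 units in libraries labelled Has2+/- ovalbumin and 691, 675 and 768 units in WT ovalbumin. The log2 difference was -0.70 (adjusted p = 0.029), and the call was lost under 9 of 21 alternatives, with adjusted p between 0.00562 and 0.137. Cdkn1a also had a negative log2 difference between genotypes under saline, -0.33 (adjusted p = 0.813). Its interaction was -0.37 (adjusted p = 0.612), so the genotype difference is not shown to arise with ovalbumin. The interaction called 0 of the 113.

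Marker sums of several other cell types differed between the same groups. The 7 macrophage markers summed to 7548 to 11776 units in Has2+/- ovalbumin, 9504 to 12267 in WT ovalbumin, 3910 to 5002 in Has2+/- saline and 3561 to 4994 in WT saline libraries, and 4 of 7 rose with ovalbumin in Has2+/- and 5 of 7 in WT. Within the Has2+/- ovalbumin group the sum was 11776, 7688 and 7548 units in libraries 7, 8 and 9. The 8 T cell markers summed to 629 to 778 units in Has2+/- ovalbumin, 659 to 949 in WT ovalbumin, 524 to 666 in Has2+/- saline and 447 to 697 in WT saline, and 0 and 3 of 8 rose in Has2+/- and WT. The part of these cells in the cell cycle result was not tested. Of the thymocyte markers, Rag2 and Ptcra stood at 0 in all libraries, and the 7 genes together summed to 56.8 to 120 units.

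The 7 squamous epithelium markers summed to 376, 120 and 27.8 units in Has2+/- ovalbumin, 19.2, 12.3 and 27924 in WT ovalbumin, 35500, 25353 and 162 in Has2+/- saline and 31088, 1957 and 23039 in WT saline libraries. They were low in 5 of 6 ovalbumin libraries and high in 5 of 6 saline libraries, the exceptions being libraries 3 and 12. The median log2 deviation of the 40 cell cycle genes in library 3, 0.68, was above that of every saline library, and in library 12, 0.28, it was below that of every ovalbumin library. The part of squamous epithelium in the result was not tested further. Erythroid markers summed to 17304 to 22715 units in Has2+/- ovalbumin, 7194 to 16726 in WT ovalbumin, 25029 to 44660 in Has2+/- saline and 18618 to 22216 in WT saline libraries, and 0 of 8 passed in either ovalbumin comparison.

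Structural and other immune markers differed too. The 5 fibroblast markers summed to 23108, 20965 and 20717 units in Has2+/- ovalbumin, 24566, 27218 and 23869 in WT ovalbumin, 16496 to 17690 in Has2+/- saline and 15726 to 17418 in WT saline libraries. The sums of ovalbumin and saline libraries did not overlap, and within each ovalbumin group they ranked as the median of the 40 cell cycle genes did. The markers did not move together: 2 of 5 rose and 0 fell in Has2+/-, and 2 rose and 2 fell in WT. Their median log2 difference was -0.25 in Has2+/- and -0.48 in WT, opposite in direction to the sums. The 5 endothelial markers summed to 19088 to 21746 units in Has2+/- ovalbumin, 19042 to 19744 in WT ovalbumin, 22095 to 23782 in Has2+/- saline and 21958 to 22900 in WT saline libraries, lower in every ovalbumin library than in any saline library. None fell by the test in Has2+/- and 3 of 5 did in WT.

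Plasma cell markers rose for 2 of 6 genes in both Has2+/- and WT, with sums of 2753 to 4173 units in Has2+/- ovalbumin, 3117 to 4362 in WT ovalbumin, 2706 to 3002 in Has2+/- saline and 2776 to 3010 in WT saline libraries. Of the 5 tested eosinophil markers, of which Siglecf is also in the macrophage list, 2 rose in Has2+/- and 3 in WT, with sums over 6 genes of 409 to 493 units in Has2+/- ovalbumin, 358 to 501 in WT ovalbumin, 383 to 429 in Has2+/- saline and 282 to 352 in WT saline libraries. In the lists of B cell, germinal centre B cell, neutrophil, alveolar, club and ciliated markers at most 2 genes passed in either direction in an ovalbumin comparison. The part of all these cells in the cell cycle result was not tested.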

How the data were processed

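Per the labels' protocols, frozen lungs were extracted with Trizol, 500 ng of RNA went into directional libraries (rRNA depletion and poly-A selection are both named), and sequencing ran on a NextSeq500. The submitters' processing notes name build mm10; which aligner and counter were used is not given in the sources used here. Signal values are the authors' deposited normalized gene counts. From the values, the authors quantile-normalized them: the 12 sorted columns are identical (largest difference 0), and 26190 genes are at 0 in all libraries. Another 12 columns of transformed values were not used. Per the file headers, the signed fold change scores and FDR p-values come from the authors' EDGE test; its folds run second group over first by their signs. Columns carry library numbers that match no title, so libraries were assigned to groups only.

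Genes whose mean reached 1 unit in any group (19017) were fitted as log2(value + 1) in limma 3.58.1 (R 4.3.3; trend and robust), with 1 mean per group (8 residual degrees of freedom, median prior 8.40), two-sided tests and Benjamini-Hochberg adjustment per comparison, threshold 0.05; the script was tested on simulated data. All 40 genes passed the filter. Intervals are 95%. Identifiers of all 40 were found in GENCODE M21, with identical coordinates for 38. Values by library are given for the genes with the lowest and highest p of each role in WT, and the 2 lowest p of each further list were named; Cdt1, Tfdp2, Cdkn1a, Cdc7 and others beyond this rule were named after their values were seen. Sgo1 and Sgo2a are not in the table under those names. The members and lists were chosen with earlier results of these data known. Figures used matplotlib 3.10.9.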

Additional observations from a re-analysis of the deposited data

How the results depend on the processing

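No paired analysis was possible because the columns carry no replicate numbers of the sample titles. Over 21 alternatives (20 for the interaction), the WT ovalbumin count of 29 stayed at 20 to 31 with 1 library left out (20 without library 1) and at 23 to 30 otherwise, and 18 genes were called under every setting. The Has2+/- ovalbumin count of 5 became 3 with a pseudocount of 0.1, 3 with no filter on low values, 3 with housekeeping gene scaling, 0 without trend and robust, and 0 with only the 2 groups compared; with 1 library left out it was 0 to 10. Over all genes, 532 were called there, against 51 without trend and robust and 350 with no filter. Has2+/- against WT after ovalbumin had 0 to 2 genes lower and the interaction 0 to 1 with 1 library left out, both highest without library 7; the genotype comparison called 181 of all genes, against 774 without that library. The causes were not tested. No call reversed. Housekeeping scaling shifted the median of all genes by -0.17 in WT and -0.12 in Has2+/-, leaving 38 of 40 differences positive in each; Kif23 and Cdc20, not called, turned negative in WT. The comparison without libraries 3 and 12 was chosen after seeing the data. Unknown depth limits low values such as those of Gins2 and Cenph.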
